A study of Homo sapiens with 24 samples.

Results

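The genes described here are the inhibitors of DNA binding ID1, ID2, ID3 and ID4, the feedback inhibitors BAMBI, SMAD6 and SMAD7, and the ligand BMP4 with the receptors BMPR2 and BMPR1A. They were taken by name, with earlier results of these data known. Each is represented by the probe set of its symbol with the highest mean signal over all arrays. Of the 10 listed genes, 9 were found among the 18239 genes measured; BMPR1A is not analysed here. The values are RMA log2 signals from 24 Affymetrix 3′ expression arrays of the colon cancer cell line HCT116, with 3 arrays in each of 8 groups.

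The groups were formed by cells, oxygen and hormone. ESR2 cells are HCT116 cells carrying estrogen receptor beta (the product of ESR2) fused behind a HaloTag and delivered by a lentivirus that also encodes GFP; they were selected with puromycin, and per the labels over 80% of them showed GFP. They are therefore an infected population, not a clone. Parental cells are the same line without the construct, and no cells with an empty vector are among the groups. Both were kept in hypoxia with 10 nM 17β-estradiol, in hypoxia without it, in normoxia with 10 nM 17β-estradiol and in normoxia without it. Hypoxia was produced by flushing an incubator with nitrogen and CO2; its length and the oxygen level reached are not stated there. Estradiol was given in medium free of phenol red with stripped serum, and the medium of the other groups is not stated. The series asks whether this receptor alters the response of colorectal cancer cells to hypoxia. Whether replicates came from separate cultures is not stated, so the spread behind the p-values may be technical, and precision is limited by having 3 arrays in a group.

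Bone morphogenetic proteins (BMPs) bind a pair of receptor types, which phosphorylate SMAD1, SMAD5 and SMAD9; these join SMAD4 and enter the nucleus. The genes of the ID proteins are among the most direct targets of this signal. ID proteins are helix-loop-helix proteins without a DNA-binding region: they capture E proteins such as TCF3, TCF4 and TCF12 and keep them off DNA, which holds back differentiation. The same signal induces its own brakes, SMAD6, SMAD7 and BAMBI. In the colon, BMP signalling restrains stem cells and accompanies differentiation along the crypt. HCT116 cells are known for a loss of the TGF-beta type II receptor protein through mutation, while their BMP pathway is held to work.

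Arrays of a group were close to each other, with in-group correlations of 0.9956 or more outside parental normoxia and 0.9882 or more there. Array medians lay between 4.07 and 4.13. ESR2 itself read 4.51 ± 0.44 in ESR2 cells and 3.47 ± 0.11 in parental cells in normoxia (log2 signal, SD, n = 3 each; limma log2 difference 1.05, adjusted p = 6.44e-06). The difference was smaller elsewhere: 0.97 in normoxia with estradiol (adjusted p = 1.49e-05), 0.64 in hypoxia (4.07 ± 0.11 in ESR2 cells and 3.43 ± 0.11 in parental cells; adjusted p = 0.000411) and 0.46 in hypoxia with estradiol (adjusted p = 0.00608). Of 7 markers of colon epithelial cancer cells, 5 lay above the array median, led by EPCAM at a mean of 11.23, while VIL1 read 3.09. None of 7 fibroblast markers did (at most 3.92, for COL1A1), 1 of 5 leukocyte markers did (CD68, 5.81, with PTPRC at 2.63), and 2 of 3 endothelial markers did (at most 4.81, for VWF). The 3′ minus 5′ index is the mean log2 difference between control probe sets at the 3′ and the 5′ end of their transcripts. These transcripts are actin and the bacterial controls dap and thr, so the index does not read the cells' RNA alone. It was 3.74 ± 0.30 in ESR2 cells in hypoxia with estradiol and 2.10 ± 0.10 in ESR2 cells in hypoxia without it (SD, n = 3 each). It lay between 2.36 and 3.20 in the means of the other 6 groups, with one array, replicate 2 of parental normoxia, at 4.34. A larger index goes with shorter labelled RNA.

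**Figure D1:**
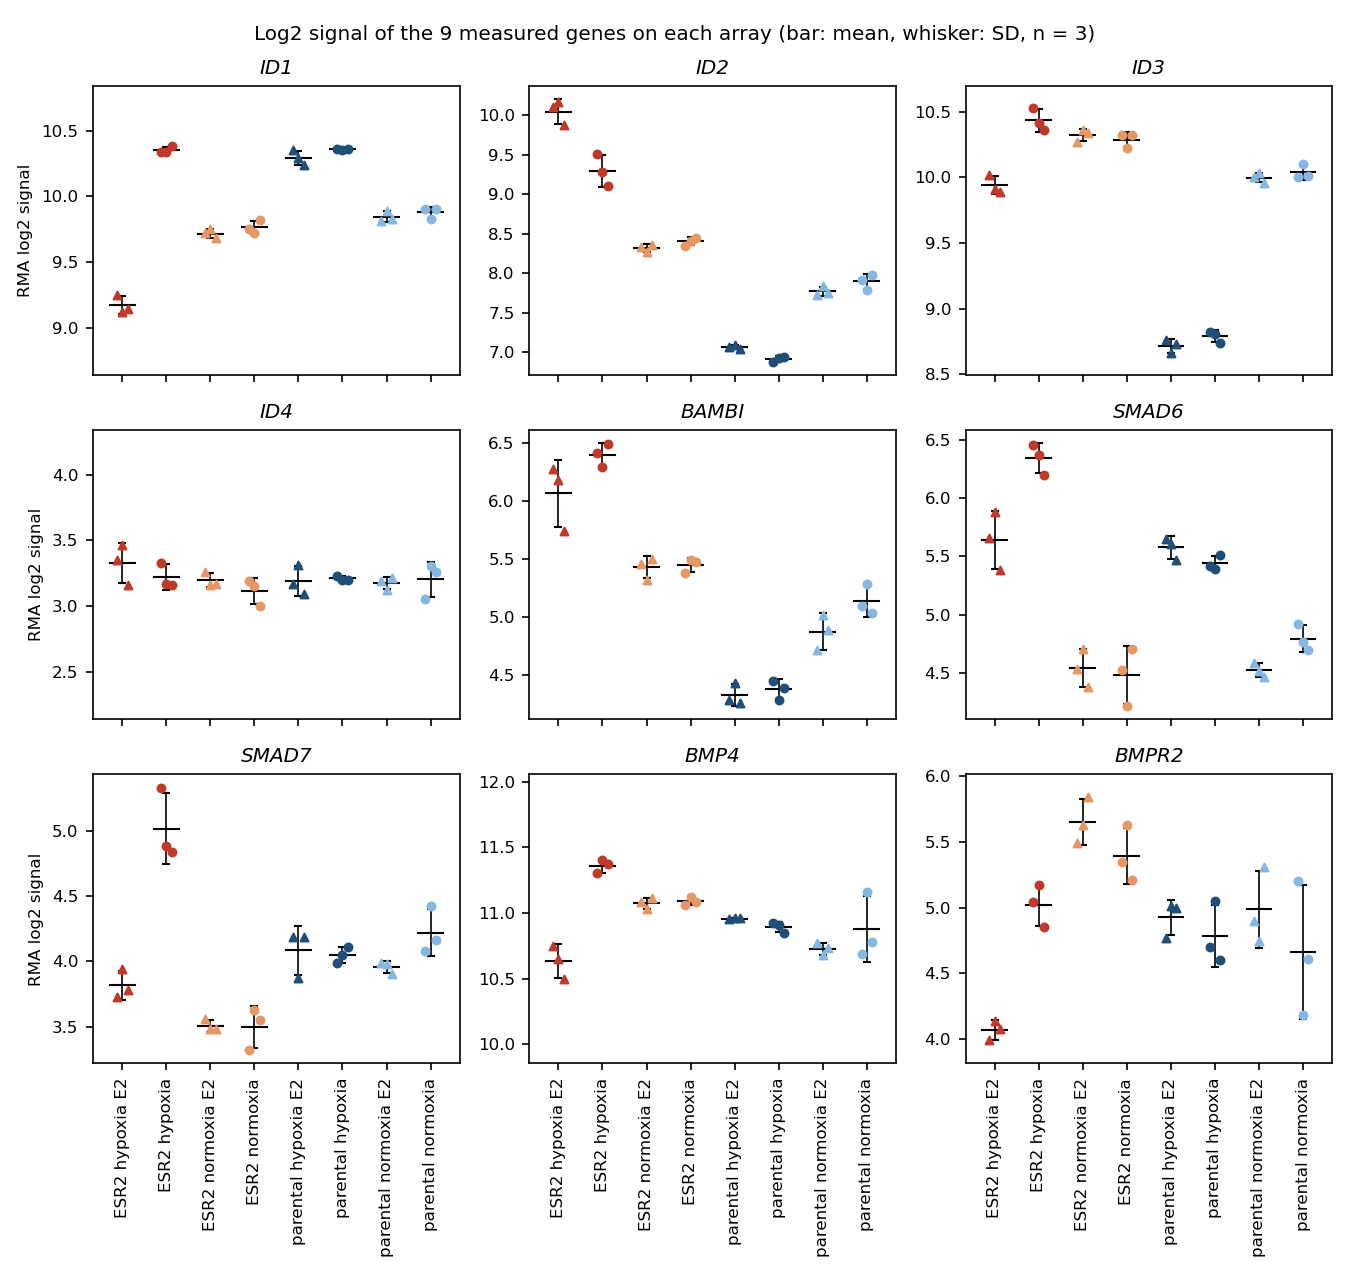
RMA log2 signal of each measured gene on each of the 24 arrays (points; triangles mark 10 nM estradiol, E2 on the axis), by group, with the group mean (bar) and SD (whisker, n = 3). Each vertical axis spans at least 2.2 log2 units and has its own range. ID2 and BAMBI lie lowest in hypoxic parental cells and highest in hypoxic ESR2 cells, and ID1 lies lowest in hypoxic ESR2 cells with estradiol, at 9.17.

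The genes differed in how bright they were and in how far they moved across the groups. BMP4, a secreted ligand, was the brightest, with a mean of 10.95 over all arrays, above 97.8% of genes. ID1 and ID3 followed at 9.92 and 9.81, and ID2 at 8.22. BAMBI, SMAD6 and BMPR2 read 5.25, 5.17 and 4.94, near the middle of all genes, and SMAD7 read 4.02. These are signals of different probe sets, so they place each gene among all probe sets and do not compare amounts of RNA between genes. ID4 was dim at 3.20 (20.4th percentile), with group means from 3.11 to 3.32. No comparison called it with this probe set and the main settings. Without replicate 3 of ESR2 hypoxia with estradiol, 2 comparisons called it (limma, adjusted p = 0.0452 and 0.0455). With its 4 probe sets averaged, 6 comparisons called it (adjusted p from 7.87e-05 to 0.0149). A dim probe set sets no limit on a small change. The distance between the lowest and the highest group mean was 3.13 for ID2, a span above that of 99.8% of genes, followed by BAMBI (2.07), SMAD6 (1.85), ID3 (1.72), BMPR2 (1.58), SMAD7 (1.52), ID1 (1.18), BMP4 (0.72) and ID4 (0.21).

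The order of the levels over the groups was not the same for the ID genes. ID2 read 10.05 ± 0.16 in ESR2 cells in hypoxia with estradiol, 9.30 ± 0.21 in hypoxia without it, and 8.32 ± 0.05 and 8.40 ± 0.05 in normoxia with and without it (SD, n = 3 each). The parental groups were all lower, at 7.07 ± 0.03 in hypoxia with estradiol, 6.92 ± 0.03 in hypoxia without it, 7.77 ± 0.06 in normoxia with estradiol and 7.89 ± 0.10 in normoxia without it. Of the pairs of groups with and without estradiol, the one in ESR2 hypoxia was called, and the hypoxic parental pair did not overlap but was not called (0.15). ID3 was lowest in the hypoxic parental groups, at 8.71 ± 0.05 with and 8.79 ± 0.05 without estradiol. Its other 6 group means lay between 9.94 and 10.43. ID1 had its lowest mean, 9.17 ± 0.07, in the group where ID2 had its highest. ID1's other means lay between 9.72 and 10.36.

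Hypoxia was first compared with normoxia in parental cells without estradiol. ID2, ID3 and BAMBI fell and ID1 and SMAD6 rose, so 5 of the 9 genes were called (limma, adjusted p under 0.05), against 37.5% of all genes. ID3, an ID protein known for its part in epithelial and lymphocyte growth, read 8.82, 8.81 and 8.74 in hypoxic parental cells, against 10.00, 10.10 and 10.01 in normoxic parental cells. Every hypoxic array was more than a log2 unit below every normoxic one. The fall was by 1.25 (SE 0.06; 2.37-fold lower, limma, adjusted p = 7.56e-14). ID2, which also binds the retinoblastoma protein, read 6.88, 6.93 and 6.94 in hypoxic parental cells, against 7.92, 7.79 and 7.98 in normoxic parental cells. ID2 thus fell by 0.98 (SE 0.08; 1.97-fold lower, adjusted p = 1.52e-09). BAMBI, a pseudoreceptor that resembles a type I receptor but has no kinase, read 4.45, 4.28 and 4.39 in hypoxic parental cells, against 5.09, 5.28 and 5.03 in normoxic parental cells. It fell by 0.76 (SE 0.11; 1.70-fold lower, adjusted p = 3.36e-06), and the groups did not overlap.

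ID1 moved the other way within the same family. It read 10.36, 10.35 and 10.36 in hypoxic parental cells, against 9.90, 9.83 and 9.90 in normoxic parental cells. The rise was 0.48 (SE 0.05; 1.39-fold, adjusted p = 1.16e-07), small in size and large beside the spread within groups. SMAD6, which blocks BMP receptors and SMAD1, read 5.42, 5.39 and 5.51 in hypoxic parental cells, against 4.92, 4.77 and 4.70 in normoxic parental cells, a rise of 0.64 (SE 0.12; adjusted p = 8.3e-05). SMAD7, which blocks both BMP and TGF-beta receptors, differed by -0.17 (95% interval -0.41 to 0.07, adjusted p = 0.281). BMP4 differed by 0.02 (-0.16 to 0.19), BMPR2 by 0.12 (-0.26 to 0.50) and ID4 by 0.01 (-0.16 to 0.18). Their groups overlapped. The sign of the ID4 difference turned when arrays were centred on their medians (-0.03), as did that of BMP4 (-0.02). BMP4 was called higher in 1 alternative, which left out replicate 2 of parental normoxia (0.16, limma, adjusted p = 0.0388). With the 3′ minus 5′ index as a covariate BMP4 differed by 0.13 (adjusted p = 0.301).

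In ESR2 cells without estradiol hypoxia went with a different set of directions. Of the 9 genes 6 rose and none fell, against 32.6% of all genes called in either direction. SMAD6 read 6.45, 6.37 and 6.20 in hypoxic ESR2 cells, against 4.53, 4.22 and 4.71 in normoxic ESR2 cells. It rose 3.61-fold (log2 1.85, SE 0.12; limma, adjusted p = 3.37e-11), a size above that of 99.8% of genes in this comparison. SMAD7 read 5.33, 4.88 and 4.84 in hypoxic ESR2 cells, against 3.32, 3.63 and 3.55 in normoxic ESR2 cells, and rose 2.86-fold (log2 1.52, SE 0.11; adjusted p = 6.18e-10). Both inhibitory SMADs thus lay above every normoxic array on every hypoxic one. BAMBI read 6.41, 6.29 and 6.49 in hypoxic ESR2 cells, against 5.38, 5.49 and 5.47 in normoxic ESR2 cells, a rise of 0.95 (SE 0.11; adjusted p = 3.81e-07).

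ID2 read 9.51, 9.28 and 9.10 in hypoxic ESR2 cells, against 8.35, 8.41 and 8.45 in normoxic ESR2 cells. This rise of 0.90 (SE 0.08; 1.86-fold, adjusted p = 2.02e-08) stands against its fall in parental cells. ID1 read 10.34, 10.34 and 10.38 in hypoxic ESR2 cells, against 9.75, 9.72 and 9.82 in normoxic ESR2 cells, and rose by 0.59 (SE 0.05; adjusted p = 1.4e-08), as it did in parental cells. BMP4 read 11.30, 11.40 and 11.37 in hypoxic ESR2 cells, against 11.06, 11.12 and 11.08 in normoxic ESR2 cells. That rise was small (0.27, SE 0.08; adjusted p = 0.0169) and lost its call without replicate 1 of ESR2 normoxia (adjusted p = 0.0532) or without replicate 2 of ESR2 hypoxia (adjusted p = 0.0627). ID3, which fell most in parental cells, differed by 0.15 (95% interval 0.02 to 0.27, adjusted p = 0.0679), a value near the threshold. Over its 3 probe sets the difference was 0.15 to 0.35, with 2 of 3 called, and 9 alternative settings called it higher (0.15 to 0.25, adjusted p from 0.00285 to 0.0474). BMPR2 differed by -0.37 (-0.75 to 0.01, adjusted p = 0.127).

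**Figure D2:**
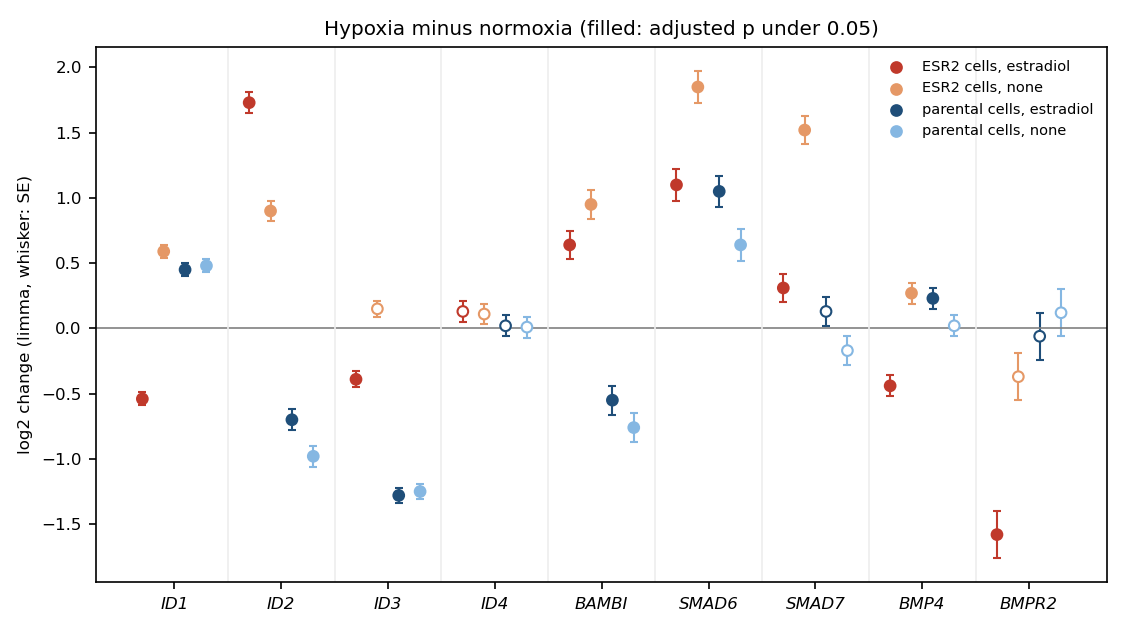
Hypoxia minus normoxia for each gene (vertical axis: log2 change from limma, whisker: SE) in ESR2 cells with estradiol, ESR2 cells without, parental cells with estradiol and parental cells without, left to right within each gene; filled points have adjusted p under 0.05. ID2 and BAMBI lie above 0 in ESR2 cells and below 0 in parental cells, and ID1 lies below 0 only in ESR2 cells with estradiol (-0.54).

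The difference between the cells' responses was tested as an interaction. It was called for 5 of the 9 genes, all toward a higher change in ESR2 cells, against 30.7% of all genes in either direction. It was 1.88 for ID2 (SE 0.12; limma, adjusted p = 7.53e-11), 1.71 for BAMBI (SE 0.15), 1.69 for SMAD7 (SE 0.16), 1.39 for ID3 (SE 0.09) and 1.21 for SMAD6 (SE 0.17). For ID1 it was 0.11 (95% interval -0.05 to 0.27, adjusted p = 0.305), which leaves room for a small difference. For BMPR2 it pointed the other way, at -0.49, and was not called. Over the 3 probe sets of BMPR2 it lay between -0.58 and -0.49, with 1 called. With these averaged it was called (-0.55, adjusted p = 0.0196). ID2 and BAMBI were called lower in hypoxic parental cells and higher in hypoxic ESR2 cells, a pair of calls that 2.39% of all genes showed. The median interaction of the 9 genes was 1.21, beside -0.044 over all genes. The genes were chosen with earlier results of these data known, so these values are descriptive and no test of the set.

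Without estradiol the 3′ minus 5′ index was lower in hypoxia than in normoxia, by group means of 2.10 and 2.71 in ESR2 cells and 2.36 and 3.20 in parental cells. With estradiol the means were 3.74 in hypoxia and 2.69 in normoxia in ESR2 cells, and 2.55 in hypoxia and 2.57 in normoxia in parental cells. With this index as a covariate the interaction of ID2, ID3, BAMBI, SMAD6 and SMAD7 remained called. Fits with this covariate are given below for some other comparisons. Beyond such fits the part of the index in these results was not tested. Bulk arrays cannot tell a change in every cell from a change in part of the population, which matters for a line in which not all cells carry the construct.

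The windows before the start sites of ID1, ID2, ID3, BAMBI and SMAD6 are shown because these genes answer to a shared signal, and in hypoxic parental cells ID1 and SMAD6 rose while ID2, ID3 and BAMBI fell. They are the 250 bases before the RefSeq start (GRCh38.p14), 5′ to 3′ on the gene's strand; all 10 listed genes matched the RefSeq table. Capitals mark the core of the hypoxia-inducible factor site, ACGTG or GCGTG, and the GC-rich SMAD motif GGCGCC, each on either strand, so that CACGC is GCGTG on the other strand.
ID1, chr20:31605039-31605288, plus strand: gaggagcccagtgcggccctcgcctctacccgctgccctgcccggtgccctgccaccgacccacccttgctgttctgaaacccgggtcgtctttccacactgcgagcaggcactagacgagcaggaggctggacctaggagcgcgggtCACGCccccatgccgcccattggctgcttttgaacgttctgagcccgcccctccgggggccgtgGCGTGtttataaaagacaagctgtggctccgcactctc
ID2, chr2:8681806-8682055, plus strand: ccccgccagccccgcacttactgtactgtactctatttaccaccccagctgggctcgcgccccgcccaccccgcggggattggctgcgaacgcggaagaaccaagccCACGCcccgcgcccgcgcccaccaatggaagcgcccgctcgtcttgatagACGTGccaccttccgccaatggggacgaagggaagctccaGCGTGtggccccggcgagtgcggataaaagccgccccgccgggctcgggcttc
ID3, chr1:23559502-23559751, minus strand: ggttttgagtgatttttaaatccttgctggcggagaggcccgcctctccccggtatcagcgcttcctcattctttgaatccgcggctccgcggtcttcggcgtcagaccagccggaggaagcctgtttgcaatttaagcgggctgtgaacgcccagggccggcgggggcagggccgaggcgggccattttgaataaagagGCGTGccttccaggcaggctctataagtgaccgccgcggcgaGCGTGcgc
BAMBI, chr10:28677271-28677520, plus strand: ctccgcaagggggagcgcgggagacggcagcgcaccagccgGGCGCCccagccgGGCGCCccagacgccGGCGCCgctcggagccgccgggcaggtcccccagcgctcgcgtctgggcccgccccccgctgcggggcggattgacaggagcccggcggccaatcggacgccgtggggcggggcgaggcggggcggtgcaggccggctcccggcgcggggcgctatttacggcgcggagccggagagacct
SMAD6, chr15:66701986-66702235, plus strand: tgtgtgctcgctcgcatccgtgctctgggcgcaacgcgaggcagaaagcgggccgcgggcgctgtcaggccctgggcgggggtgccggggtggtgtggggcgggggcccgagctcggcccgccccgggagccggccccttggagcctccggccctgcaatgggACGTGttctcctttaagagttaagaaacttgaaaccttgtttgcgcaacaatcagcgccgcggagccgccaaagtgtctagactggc

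ID1, which rose in hypoxia in both cell types, has 2 GCGTG cores, starting 102 and 38 bases before the start site. ID3, which fell in parental cells, also has 2, at 50 and 8 bases, and ID2 has 2, at 143 and 53 bases, plus 1 ACGTG at 93 bases. A core in either spelling stands in 43.2% of the 35116 windows of this length, ACGTG in 18.5% and GCGTG in 32.2%. SMAD6, which rose in both cell types, has 1 ACGTG, at 87 bases, and none of the other motifs searched. BAMBI has neither spelling. BAMBI has GGCGCC 3 times, at 209, 196 and 181 bases, and 16.4% of windows hold that motif. The SMAD box CAGAC, present in 38.0% of windows, was found in ID3 (147 bases) and BAMBI (189 and 140 bases). The half-site GGTCA of estrogen receptors, present in 32.6% of windows, was found in ID1 (105 bases) and ID3 (23 bases). SMAD7 has 3 start sites in the RefSeq table, and their windows differ. One has CAGAC at 217 and 128 bases, another has GCGTG at 124 and 41 bases with CAGAC at 193 and GGTCA at 127, and the last has GGTCA at 62 bases. These matches describe letters in a short window. The hypoxia core stands in genes with a rise and in genes with a fall, and whether any site is used was not tested.

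The comparison of the cells themselves shows where these differences sit. In hypoxia without estradiol 6 of the 9 genes were higher in ESR2 cells and none was lower on its brightest probe set, against 40.4% of all genes called in either direction. ID2 was 5.22-fold higher (log2 2.38, SE 0.08; limma, adjusted p = 1.37e-15), BAMBI 4.06-fold (log2 2.02, SE 0.11; adjusted p = 9.37e-13) and ID3 3.12-fold (log2 1.64, SE 0.06; adjusted p = 2.1e-15). The size of the ID2 difference exceeded that of 99.9% of genes. SMAD7 (0.97, SE 0.11), SMAD6 (0.90, SE 0.12) and BMP4 (0.46, SE 0.08) were higher by less. ID1 differed by 0.00 (95% interval -0.11 to 0.11), and BMPR2 by 0.24 (-0.14 to 0.62). Over its 3 probe sets the BMPR2 difference lay between -0.76 and 0.24, with 2 called. BMPR2 was called lower on its second brightest probe set (-0.76, limma, adjusted p = 0.00359) and with its probe sets averaged (-0.32, adjusted p = 0.0407).

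In normoxia without estradiol the differences were smaller, and 5 of the 9 genes were called, against 18.6% of all genes. ID2 was higher in ESR2 cells by 0.51 (SE 0.08; limma, adjusted p = 0.000166), and its 3 ESR2 arrays lay above its 3 parental ones. SMAD7 was lower in ESR2 cells, by group means of 3.50 ± 0.16 and 4.22 ± 0.18 in parental cells (SD, n = 3 each; log2 -0.72, SE 0.11; adjusted p = 9.33e-05). ID3 (0.25, adjusted p = 0.00575), BAMBI (0.31, adjusted p = 0.0462) and BMPR2 (0.73, adjusted p = 0.00659) were higher. The last 3 calls did not hold in every setting. With the spread taken from these 6 arrays alone the adjusted p was 0.093 for ID3, 0.0809 for BAMBI and 0.12 for BMPR2, and only ID2 and SMAD7 were called. The BAMBI call also ended when any of 5 of the 6 arrays was left out, with adjusted p from 0.0656 to 0.145. That of BMPR2 ended without replicate 2 of parental normoxia, the array with the high index (0.49, adjusted p = 0.0588). BMP4 (0.21) and SMAD6 (-0.31) were not called, though both had an unadjusted p under 0.05 in limma. BMP4 was called higher in 5 alternative settings (0.21 to 0.35, adjusted p from 0.000151 to 0.0402). SMAD6 was called lower in 3 (-0.42 to -0.26, adjusted p from 0.0203 to 0.0458).

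**Figure D3:**
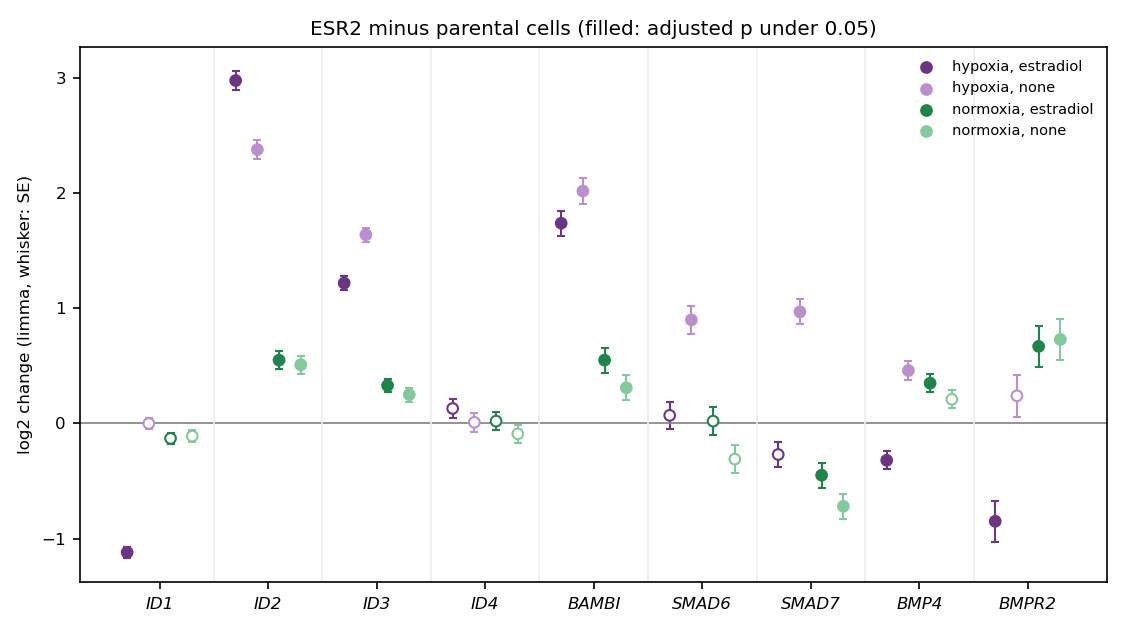
ESR2 minus parental cells for each gene (vertical axis: log2 difference from limma, whisker: SE) in hypoxia with estradiol, hypoxia without, normoxia with estradiol and normoxia without, left to right within each gene; filled points have adjusted p under 0.05. The differences of ID2, ID3 and BAMBI are larger in both hypoxic settings (ID2 2.98 and 2.38) than in normoxia (0.55 and 0.51).

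Estradiol left the genes without a call in 3 of the 4 settings. In normoxic ESR2 cells 0 of the 9 genes were called, against 0% of all genes, and 0 had an unadjusted p under 0.05 in limma. In hypoxic parental cells 0 were called, against 0.0164% of all genes, and 0 had an unadjusted p under 0.05. In normoxic parental cells 0 were called, against 0.011% of all genes; BAMBI (-0.26), SMAD6 (-0.27) and SMAD7 (-0.26) had an unadjusted p under 0.05, as 13.8% of all genes did. Without replicate 1 of parental normoxia BMPR2 was called there (0.59, adjusted p = 0.0483), with 643 genes called in all. The widest 95% interval in normoxic ESR2 cells was that of BMPR2, -0.12 to 0.64. The interaction of estradiol with ESR2 in normoxia called 0 of the 9, against 0% of all genes, with 0 at an unadjusted p under 0.05.

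Hypoxic ESR2 cells were the exception. With estradiol 7 of the 9 genes were lower there and ID2 was higher, against 57% of all genes called in either direction. The arrays with estradiol also had a higher 3′ minus 5′ index than those without it. The median change of all genes was 0.116 in this comparison, so the signed values below stand against a small general rise. SMAD7 read 3.73, 3.94 and 3.78 in hypoxic ESR2 cells with estradiol, against 5.33, 4.88 and 4.84 without it. It fell by 1.20 (SE 0.11, 2.29-fold lower, limma, adjusted p = 7.77e-09). Over the 3 probe sets of SMAD7 the change lay between -1.20 and 0, with 1 called. ID1 read 9.25, 9.12 and 9.14 with estradiol, against 10.34, 10.34 and 10.38 without it, and fell by 1.18 (SE 0.05; 2.27-fold lower, adjusted p = 6.05e-14). Over the 3 probe sets of ID1 the change lay between -1.51 and -1.07. ID2 read 10.10, 10.17 and 9.87 with estradiol, against 9.51, 9.28 and 9.10 without it. ID2 rose by 0.75 (SE 0.08; 1.68-fold, adjusted p = 1.12e-07), so that ID1 and ID2 parted.

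The other falls in hypoxic ESR2 cells were smaller. BMP4 read 10.75, 10.65 and 10.50 with estradiol, against 11.30, 11.40 and 11.37 without it, a fall by 0.72 (SE 0.08; limma, adjusted p = 2.02e-07). ID3 fell by 0.49 (SE 0.06, adjusted p = 4.09e-07). SMAD6 fell by 0.70 (SE 0.12, adjusted p = 3.08e-05), a call lost when its 3 probe sets were averaged (-0.08, adjusted p = 0.266). Over these 3 probe sets the SMAD6 change lay between -0.70 and 0.30, with 2 called, so its direction depends on the probe set. BMPR2, a type II receptor, read 3.99, 4.14 and 4.08 with estradiol, against 5.04, 5.17 and 4.85 without it, and fell by 0.95 (SE 0.18; adjusted p = 0.000153). Over its 3 probe sets this change lay between -0.95 and 0.12, with 2 called, so its size and direction depend on the probe set. BAMBI fell by 0.33 (SE 0.11; adjusted p = 0.0138), the smallest of the falls, with replicate 3 of the estradiol arrays at 5.74 below the other two. Without that array BAMBI's difference was -0.17 (adjusted p = 0.156), and with the arrays quantile-normalized again it was -0.10 (adjusted p = 0.467). The BAMBI call was thus the least firm of the 8.

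The group with estradiol is the one whose 3′ minus 5′ index stood apart, at 3.74 ± 0.30 against 2.10 ± 0.10 without estradiol (SD, n = 3 each). With the index as a covariate the falls of ID1 (-1.14, adjusted p = 7.32e-10), SMAD7 (-1.34), BMP4 (-0.94), SMAD6 (-0.79) and ID3 (-0.57) and the rise of ID2 (0.88, adjusted p = 9.19e-06) remained called. Those of BMPR2 (-0.46, adjusted p = 0.167) and BAMBI (-0.42, adjusted p = 0.0578) did not. Over all genes 6897 were called with the covariate, against 10394 without it. Among hypoxic ESR2 arrays the index and estradiol cannot be told apart.

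The difference of the estradiol response between the cells in hypoxia was called for 7 of the 9 genes, against 42% of all genes. It was lower in ESR2 cells for SMAD7 (-1.24), ID1 (-1.12), BMPR2 (-1.09), SMAD6 (-0.83), BMP4 (-0.78) and ID3 (-0.42) and higher for ID2 (0.60, SE 0.12; limma, adjusted p = 0.000388). Over the 3 probe sets of BMPR2 it lay between -1.09 and 0.19, with 1 called. Over those of SMAD7 it lay between -1.24 and -0.04, with 1 called. Between hypoxia and normoxia within ESR2 cells it was called for the same 7 of the 9 genes, against 43.8% of all genes, with ID1 at -1.13 and ID2 at 0.83. Within parental cells 0 were called, against 0.00548% of all genes, and ID2 (0.27) and SMAD6 (0.41) had an unadjusted p under 0.05. These interaction comparisons share arrays, so their values are given side by side only.

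With estradiol present the hypoxia response of parental cells was like that without it in the genes called. There 6 of the 9 genes were called, against 34.8% of all genes, with ID3 (-1.28), ID2 (-0.70) and BAMBI (-0.55) lower and SMAD6 (1.05), ID1 (0.45) and BMP4 (0.23) higher. The BMP4 call (limma, adjusted p = 0.0376) ended when any array of the 2 groups was left out (adjusted p from 0.0522 to 0.117). In ESR2 cells 8 of the 9 genes were called, against 52.3% of all genes: ID2 (1.73), SMAD6 (1.10), BAMBI (0.64) and SMAD7 (0.31) higher, and BMPR2 (-1.58), ID1 (-0.54), BMP4 (-0.44) and ID3 (-0.39) lower. ID1 and ID3 thus fell in hypoxia in ESR2 cells only with estradiol among the settings run, and the 3′ minus 5′ index was also higher in that hypoxic group. SMAD7's call there ended with the index as a covariate (0.22, adjusted p = 0.226) and in 6 other settings (adjusted p from 0.0606 to 0.11), among them without replicate 2 or 3 of ESR2 normoxia with estradiol or replicate 2 of ESR2 hypoxia with estradiol.

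The interaction with estradiol present called 6 of the 9 genes, against 38.6% of all genes. It was 2.43 for ID2 (SE 0.12), 1.19 for BAMBI and 0.89 for ID3, and -1.52 for BMPR2, -0.99 for ID1 and -0.67 for BMP4; for SMAD6 (0.05) and SMAD7 (0.18) it was not called. Between the cells in hypoxia with estradiol 6 of the 9 genes were called, against 47.7% of all genes. ID2 was 7.89-fold higher in ESR2 cells (log2 2.98, SE 0.08, limma, adjusted p = 7.87e-18) and ID1 2.17-fold lower (log2 -1.12, SE 0.05). BAMBI (1.74) and ID3 (1.22) were also higher in ESR2 cells, and BMP4 (-0.32) was lower. SMAD7 (-0.27) was not called, though 5 alternative settings called it lower (adjusted p from 0.015 to 0.0498). The BMPR2 difference there (-0.85, adjusted p = 0.000441) was not called with the index as a covariate (-0.50, adjusted p = 0.0738). In normoxia with estradiol 6 of the 9 genes were called, against 13.7% of all genes, with ID2 (0.55), BAMBI (0.55), ID3 (0.33), BMP4 (0.35) and BMPR2 (0.67) higher in ESR2 cells and SMAD7 (-0.45) lower. The BMPR2 call there ended without replicate 1 or 2 of parental normoxia with estradiol or replicate 3 of ESR2 normoxia with estradiol (adjusted p from 0.0669 to 0.0936).

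Several of these genes have more than 1 probe set, which reads the same gene again on the same arrays. In hypoxic parental cells the 3 of ID1 moved in one direction, as did the 3 of ID3: those of ID1 rose by 0.44 to 0.58 and those of ID3 changed by -1.56 to -1.25. A probe set shared by ID2 and the pseudogene ID2B, not used above, read 8.74 ± 0.24 in hypoxic ESR2 cells, 7.61 ± 0.13 in normoxic ESR2 cells, 6.80 ± 0.05 in hypoxic parental cells and 7.26 ± 0.16 in normoxic parental cells (SD, n = 3 each), which is the order of ID2. For SMAD6 and SMAD7 the brightest of 3 probe sets carries the result. Their other probe sets stayed dim: the hypoxia change in ESR2 cells ranged from -0.16 to 1.85 over those of SMAD6 and from 0.04 to 1.52 over those of SMAD7, with 1 of 3 called each time. Averaged over a gene's probe sets, the normoxic differences between ESR2 and parental cells lost their call for SMAD7 with estradiol (-0.19, adjusted p = 0.0515), for ID3 without it (0.17, adjusted p = 0.0518) and for BMPR2 both without it (0.23, adjusted p = 0.227) and with it (0.20, adjusted p = 0.344). The hypoxia response of SMAD7 in ESR2 cells with estradiol also lost its call (0.12, adjusted p = 0.102).

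The 3 probe sets of BMPR2 disagreed. In hypoxic parental cells the second brightest rose by 1.14 (SE 0.20; limma, adjusted p over all probe sets = 7.01e-05), where the brightest differed by 0.12. In hypoxic ESR2 cells the changes were -0.37, 0.58 and -0.39 in order of brightness. Between ESR2 and parental cells in normoxia they were 0.73, -0.19 and 0.14. The direction of BMPR2 is therefore uncertain in these comparisons. Its fall in hypoxic ESR2 cells with estradiol relative to normoxia was -0.27 on the second brightest probe set (adjusted p = 0.259), against -1.58 on the brightest. The 3 dimmer probe sets of ID4 read at most 3.34 in any group; over all 4 the hypoxia change in ESR2 cells ranged from 0.11 to 0.58, with 2 called.

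**Figure D4:**
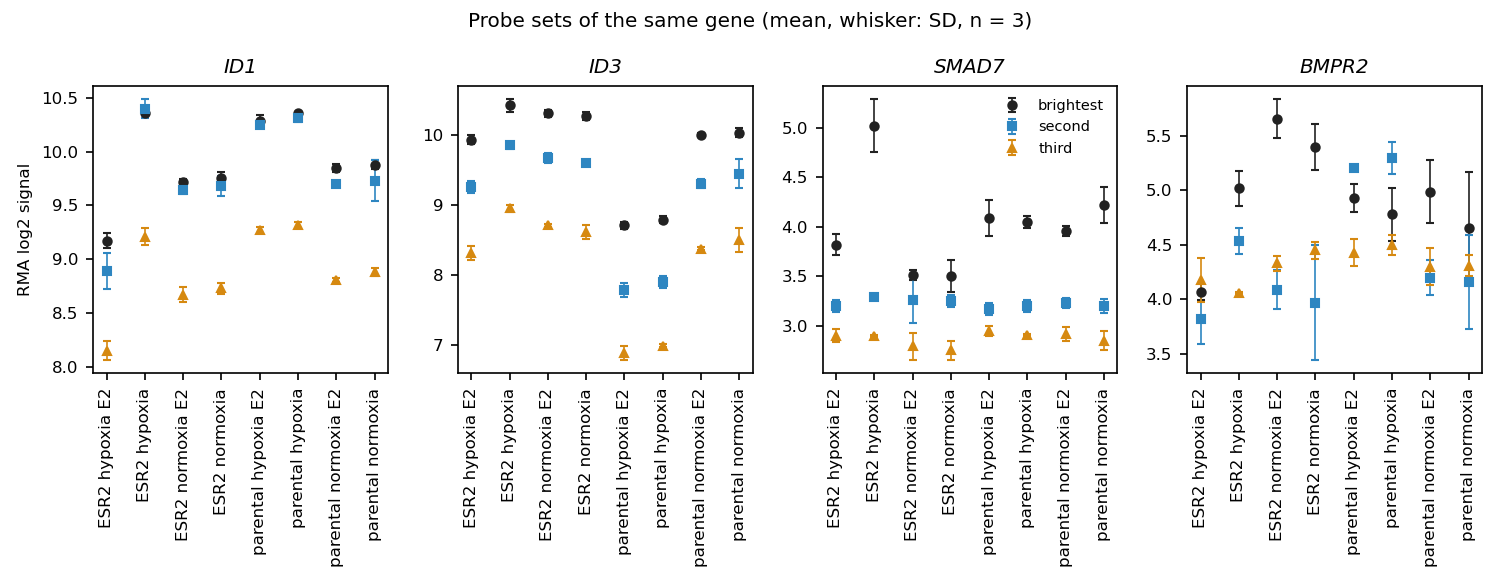
Mean RMA log2 signal (whisker: SD, n = 3) of the 3 probe sets of ID1, ID3, SMAD7 and BMPR2 in each group (E2: 10 nM estradiol); black circles mark the brightest, blue squares the next and orange triangles the dimmest. The probe sets of ID1 and of ID3 follow a similar course, the dimmer ones of SMAD7 change little, and those of BMPR2 part in hypoxic parental cells (4.78, 5.30 and 4.50).

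Across the 8 group means some of these genes ran together. Pearson's r was 0.95 between ID2 and BAMBI, 0.80 between ID3 and BAMBI, 0.76 between SMAD6 and SMAD7, 0.69 between ID2 and ID3, and -0.63 between ID1 and ID2. These points share arrays and their processing, and they describe 8 groups only. Among the 3840 genes whose group means span at least 1 log2 unit, those most like ID1 over the 8 groups were AKAP13 (r = 0.999), a kinase-anchoring protein, ABCC1 (0.994), a drug transporter, and POGZ (0.993), a zinc finger protein. Those most like ID2 were SNU13 (0.993), a component of the spliceosome, ZC2HC1C (0.992) and ZNF232 (0.992). Those most like ID3 were DHRS13 (0.995), KEAP1 (0.992), the adaptor that holds NRF2 low, and ZCCHC10 (0.990). By Spearman's rank correlation other genes came first, such as EXT1 for ID1, BLCAP for ID2 and ZBTB42 for ID3.

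The wider pathway was read from 79 other genes, of which 77 were measured. In hypoxic parental cells 19 rose and 9 fell, so 36.4% were called, close to the 37.5% of all genes; their median change was 0.07. Among the receptor-regulated and common SMADs 3 of 6 were called. SMAD3, a TGF-beta mediator, rose by 0.54. Of the BMP mediators SMAD1 fell by 0.66, and SMAD5 rose by 0.31 with overlapping groups. Among 13 receptors 4 rose and 1 fell, including the activin receptor ACVR2B (0.87). Of 14 measured extracellular antagonists 2 rose, TWSG1 (0.77), which binds BMPs, and NOG (0.27), the BMP trap noggin. Of 15 ligands 3 rose and 1 fell, led by BMP7 (0.62) and GDF11 (-0.48). Of 11 other intracellular inhibitors and ubiquitin ligases 4 rose and 2 fell. PMEPA1 (1.08), which sequesters SMADs, and the ligase NEDD4L (0.79) rose and the corepressor SKI (-1.63) fell, SKI with an SD of 1.03 in parental normoxia.

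Partners and other targets moved in both directions. Of 7 E proteins and other helix-loop-helix partners of ID proteins, TCF12 (1.09, SE 0.09; limma, adjusted p = 2.74e-10) and TCF3 (0.41) rose in hypoxic parental cells and ATOH1 (-0.22) fell. In hypoxic ESR2 cells TCF12 rose by 0.25, and the difference between the cells was called (-0.84, adjusted p = 8.83e-06). Of 11 other BMP and TGF-beta targets 2 rose and 3 fell in hypoxic parental cells. HES1, a Notch and BMP target, rose by 1.37 there and by 1.53 in ESR2 cells, with an interaction of 0.16 (adjusted p = 0.363). MSX2, a homeobox gene induced by BMPs, read 7.06 ± 0.16 in hypoxic ESR2 cells and 7.16 ± 0.24 in normoxic ESR2 cells, and 4.82 ± 0.32 in hypoxic parental cells and 6.90 ± 0.11 in normoxic parental cells (SD, n = 3 each). Its fall by 2.08 in parental cells had no counterpart called in ESR2 cells, and the difference was 1.97 (SE 0.19; adjusted p = 4.01e-08).

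In hypoxic ESR2 cells 25 of the 77 genes rose and 5 fell (39% called, against 32.6% of all genes), with a median of 0.05. CCN2, a secreted matrix protein, rose by 1.47 and SMAD3 by 1.06. Between ESR2 and parental cells in normoxia 5 of the 77 were higher and 15 lower (26% called, against 18.6% of all genes). CDKN1A, the cell cycle inhibitor p21, was 2.69-fold higher in ESR2 cells (log2 1.43, SE 0.10; limma, adjusted p = 2.02e-09), and TGFBR1 was higher by 0.56. NEDD4L (-0.88), CCN2 (-0.81), PMEPA1 (-0.76) and SMAD3 (-0.67) were lower. The type II receptor gene TGFBR2 read 6.01 ± 0.16 in ESR2 cells and 6.36 ± 0.17 in parental cells there (SD, n = 3 each; adjusted p = 0.0654).

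For orientation, the oxygen response itself was present in both cells. The changes given here are without estradiol unless it is named. VEGFA, an angiogenic target of hypoxia-inducible factors, rose by 1.16 in hypoxic ESR2 cells and by 1.84 in hypoxic parental cells. With estradiol VEGFA read 8.91 ± 0.17 in hypoxic and 8.38 ± 0.12 in normoxic ESR2 cells (SD, n = 3 each). In parental cells with estradiol it read 10.52 ± 0.02 in hypoxia and 8.64 ± 0.09 in normoxia. EPAS1, the gene of HIF-2 alpha, rose by 0.81 in ESR2 and 0.90 in parental cells. HIF1A RNA fell by 1.72 in ESR2 and by 0.50 in parental cells.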

How the data were processed

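RNA of 24 HCT116 samples in 8 groups was hybridised to Affymetrix 3′ arrays. The deposited values are log2 signals; per the submitters' processing notes RMA and affy were used, in versions not given in the sources used here. RMA corrects background, quantile-normalizes and sums up probe sets; it compresses changes of dim genes. Of 49386 probe sets, 93 are controls, 45253 have 1 symbol in GEO's platform annotation, 1327 several and 2713 none. Symbols were checked by Entrez ID against RefSeq (GRCh38.p14), which updated 0 and lacked 81.

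The brightest probe set stood for each of 18239 genes, with no filter. One model with a mean per group took in all arrays (limma 3.58.1, lmFit and eBayes, 16 residual degrees of freedom, R 4.3.3), with Benjamini-Hochberg adjustment within each of 16 comparisons and 2 added after the data were seen (estradiol by hypoxia within each cell type), at 0.05. The fit was tested on simulated data. Intervals are 95%. Figures were drawn with matplotlib 3.10.9. The members and lists were chosen with earlier results of these data known. Named genes are all members, up to 4 genes with the smallest p per pathway list in parental hypoxia and in ESR2 against parental normoxia, and the 3 most like ID1, ID2 and ID3 by Pearson's r; TGFBR2, ESR2, HIF1A, EPAS1 and VEGFA could be named anywhere. Genes first by Spearman and marker genes at the ends of their lists are given as examples. Alternatives were other scalings, probe set rules, spreads, array weights, the replicate block, the 3′ minus 5′ index as a covariate and leaving out arrays.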

Additional observations from a re-analysis of the deposited data

Results flagged for a closer look

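Each value here is the difference between the effects of the same contrast in 2 settings, tested as an interaction in limma with an adjusted p under 0.05. The hypoxia response differed between ESR2 and parental cells without estradiol for ID2 (1.88), BAMBI (1.71), SMAD7 (1.69), ID3 (1.39) and SMAD6 (1.21). With estradiol it differed for ID2 (2.43), BAMBI (1.19) and ID3 (0.89), and, toward lower in ESR2 cells, for BMPR2 (-1.52), ID1 (-0.99) and BMP4 (-0.67).

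The estradiol response in hypoxia differed between ESR2 and parental cells for ID2 (0.60), SMAD7 (-1.24), ID1 (-1.12), BMPR2 (-1.09), SMAD6 (-0.83), BMP4 (-0.78) and ID3 (-0.42). Within ESR2 cells it differed between hypoxia and normoxia for ID2 (0.83), ID1 (-1.13), SMAD7 (-1.21), BMPR2 (-1.21), SMAD6 (-0.75), BMP4 (-0.71) and ID3 (-0.53). All comparisons with estradiol in hypoxic ESR2 cells use the 3 arrays with the high 3′ minus 5′ index. With the index as a covariate both estradiol interactions of BMPR2 lost their call (-0.66, adjusted p = 0.0837, and -0.71, adjusted p = 0.0779). Averaged over its probe sets, SMAD6 lost both as well (-0.16, adjusted p = 0.134, and -0.10, adjusted p = 0.375). Over its 3 probe sets they ranged from -0.83 to 0.24, with 1 called, and from -0.75 to 0.33, with 2 called. Over the 3 probe sets of SMAD7 they ranged from -1.24 to -0.04 and from -1.21 to -0.04, with 1 called each time.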

How the results depend on the processing

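Of 1608 values, under the alternatives, of the gene and comparison pairs called with the main settings, 1552 kept their direction and side of the threshold, 54 fell short of it and 2 reversed; of 360 counts of called genes 355 stayed within 1.5 times. Of 1614 values of the 81 pairs not called, 48 were called, over 24 pairs; 11 of these came from averaging probe sets. Both reversals are of BMPR2 with its second brightest probe set, an alternative chosen after seeing the data: -0.189 between ESR2 and parental cells in normoxia and -0.112 in normoxia with estradiol. The count for ESR2 against parental cells in normoxia, 5, was 3 with the mean of probe sets, 3 with the second brightest probe sets, 2 with the spread of only the groups compared and 8 with array weights; leaving out an array gave 4 to 5. In normoxic parental cells estradiol called 0 to 1 of the genes when an array was left out. Over all genes the normoxic ESR2 comparison called 3396, against 5187 with array weights and 1061 with only the groups compared; with estradiol it called 2494, against 4437 and 3772. Estradiol in normoxic parental cells called 2, and 604 with array weights; in hypoxic parental cells 3, against 59 with array weights and 9 without the arrays that stand apart; in normoxic ESR2 cells 0, and at most 5; in hypoxic ESR2 cells 10394, against 6897 with the 3′ minus 5′ index as a covariate. Its interaction with ESR2 in normoxia called 0, against 29 with array weights, and that with hypoxia in parental cells 1, against 13. Every probe set as a feature counts probe sets, not genes (14596 in parental hypoxia, against 6844 genes).

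Replicate numbers are shared between groups, but same-numbered arrays did not deviate together (0 of 12 group pairs, correlations -0.29 to 0.29). With the number as a replicate block BAMBI's difference between ESR2 and parental cells in normoxia was 0.32 (adjusted p = 0.0573), not called, and no other member's call ended. The cause was not tested for these changes. Signal over background limits ID4 and the dimmer probe sets.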
